A study of Rattus norvegicus with 14 samples.

Results

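The expression of 5 regulators of the actin cytoskeleton, Dock11, Raph1, Afap1l2, Scin and Myo1d, was followed over 14 arrays of drug-treated rat IEC-6 cells. They were found by symbol in the probe annotation, and all their probe sets were taken: 9 of 31042 probe sets, for 5 of 14217 named genes. The genes had been picked for large changes under the drugs in the same arrays. Their changes under indomethacin and NS-398 are therefore given as a description, with no test. All 9 probe sets reached a signal of 100 on at least 2 arrays and were among the 17515 fitted.

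IEC-6 cells are an untransformed line grown from the crypts of rat small intestine. Cells were kept for 72 h with 100 µM indomethacin (2 arrays), 100 µM NS-398 (4 arrays), 1 µM SC-560 (4 arrays) or the solvent DMSO alone (4 arrays), and DMSO was the vehicle of the drugs. Indomethacin blocks both cyclooxygenases, NS-398 prefers cyclooxygenase-2 and SC-560 prefers cyclooxygenase-1. SC-560 was given at a lower dose, so drug and dose cannot be told apart for it. Per the design text, migration is slowed by indomethacin and NS-398 and not by SC-560, which is the division the arrays were made to address. Cultures were pooled and several chips were hybridised per biological sample, so p-values cover only the spread of arrays, which may be technical. The labels fall into 8 arrays with a suffix b, called set b, and 6 without it. What the suffix stands for is not given in the sources used here, and both indomethacin arrays are in set b.

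Median signals were 97.8 to 118 per array. The 3′ over 5′ signal ratio of beta-actin control probes, which moves with RNA quality and labelling, was 1.22 to 1.34 in set b and 1.50 to 1.64 without the suffix. Of the 8 epithelial markers, Krt8 and Cdh1 reached a signal of 100 on all 14 arrays and Krt19 on 11, while Krt18, Epcam, Cldn3, Cldn4 and Cldn7 reached it on 0. The enterocyte markers Fabp1, Fabp2 and Alpi also reached it on 0 arrays and Vil1 on 4, and the mesenchymal genes Vim, Col1a1, Col1a2, Acta2, Tagln and Dcn on all 14, with Thy1 and Pdgfrb on 0. Of the leukocyte markers, Ptprc, Itgam and Cd3e reached it on 0 arrays, Cd68 on 2 and Cd14 on 14. Of the endothelial markers, Pecam1 reached it on 0 and Kdr on 5. The summed signal of the epithelial markers was 10812 to 11000 with indomethacin, 8038 to 11229 with NS-398, 10406 to 11564 with SC-560 and 9655 to 11350 with DMSO. That of the 8 mesenchymal markers was 66402 to 68897 with indomethacin, 51125 to 70128 with NS-398, 53665 to 77200 with SC-560 and 50865 to 68919 with DMSO. That of the 5 leukocyte markers, nearly all from Cd14, was 3948 to 4200 with indomethacin, 3868 to 4151 with NS-398, 3088 to 3786 with SC-560 and 3283 to 3909 with DMSO. These ranges cover both label sets for NS-398, SC-560 and DMSO but only set b for indomethacin. They therefore do not compare indomethacin with the other groups within a set. The part of these sums in the changes below was not tested.

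Crawling cells push their edge forward with a branched actin network. The small GTPase Cdc42 and its relative Rac1 switch on nucleators of that network, and other proteins lengthen, cut, cap or anchor the filaments. Dock11, also called zizimin 2, loads Cdc42 with GTP. Raph1, known as lamellipodin, brings Ena/VASP proteins and the WAVE complex to the leading edge. Afap1l2, or XB130, is an adaptor that binds the kinase Src and the regulatory subunit of phosphoinositide 3-kinase. Scin, also called scinderin or adseverin, is a calcium-dependent filament-severing protein of the gelsolin family. Myo1d is a class I myosin, a single-headed motor that links actin to membranes and is found in the brush border of enterocytes. Intestinal epithelium reseals small injuries by such crawling, which is called restitution.

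The promoters of 4 of the 5 genes were matched in a RefSeq table of the GRCr8 assembly, and are shown because Dock11, Afap1l2 and Scin were lower together while Raph1 was higher. Each window of 300 bases runs 5′ to 3′ on the gene's strand, with 250 bases before the annotated start and 50 after it. Dock11 is at chrX:119997461-119997760 (plus strand), Raph1 at chr9:69483970-69484269 (minus), Afap1l2 at chr1:266065894-266066193 (minus) and Scin at chr6:62915238-62915537 (minus). Capitals mark GC boxes (GGGCGG) and the core of the aryl hydrocarbon receptor element (GCGTG), searched on both strands, so that CCGCCC and CACGC are the same motifs read on the other strand.
Dock11: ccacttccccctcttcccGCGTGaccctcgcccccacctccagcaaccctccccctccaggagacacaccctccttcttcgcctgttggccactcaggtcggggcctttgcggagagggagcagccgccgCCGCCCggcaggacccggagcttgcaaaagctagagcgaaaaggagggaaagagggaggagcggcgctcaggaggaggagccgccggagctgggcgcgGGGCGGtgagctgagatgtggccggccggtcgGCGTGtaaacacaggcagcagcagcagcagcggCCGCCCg
Raph1: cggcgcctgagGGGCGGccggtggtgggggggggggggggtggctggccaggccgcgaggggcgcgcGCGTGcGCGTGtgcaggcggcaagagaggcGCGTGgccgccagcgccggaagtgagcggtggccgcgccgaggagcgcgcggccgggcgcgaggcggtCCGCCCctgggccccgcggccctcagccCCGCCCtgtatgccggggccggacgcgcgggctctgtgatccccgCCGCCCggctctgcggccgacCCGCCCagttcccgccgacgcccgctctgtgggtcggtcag
Afap1l2: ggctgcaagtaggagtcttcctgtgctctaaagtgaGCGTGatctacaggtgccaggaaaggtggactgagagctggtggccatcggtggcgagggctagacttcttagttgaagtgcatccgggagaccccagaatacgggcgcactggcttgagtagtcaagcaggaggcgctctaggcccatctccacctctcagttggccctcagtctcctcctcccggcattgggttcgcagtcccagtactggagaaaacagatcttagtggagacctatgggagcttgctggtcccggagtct
Scin: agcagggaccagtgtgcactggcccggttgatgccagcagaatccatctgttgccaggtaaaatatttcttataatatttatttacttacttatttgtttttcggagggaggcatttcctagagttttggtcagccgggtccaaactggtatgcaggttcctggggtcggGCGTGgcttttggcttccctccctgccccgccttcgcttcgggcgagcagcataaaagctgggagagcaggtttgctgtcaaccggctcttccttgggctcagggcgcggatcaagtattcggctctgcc

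The Raph1 window was 82.3% G and C with 49 CpG sites, and the Dock11 window 70% with 26. The Afap1l2 window held 57.3% G and C with 10 CpG sites, and the Scin window 53.3% with 13. The median over 33469 windows of the same length was 51.7% and 7 CpG sites. GC boxes stood 5 times in the Raph1 window and 3 times in that of Dock11, with 0 in the other windows. The aryl hydrocarbon receptor core stood 3 times in Raph1, 2 times in Dock11 and 1 time each in Afap1l2 and Scin. Of all windows, 33.1% hold at least 1 GC box and 29.7% at least 1 GCGTG. The search for CACGTG (E-box, in 6.42% of windows), TGANTCA (AP-1, 7.33%), TGACGTCA (CRE, 1.83%), TGACNNNGC (antioxidant response core, 12.1%), TGATGNAA (ATF4, 3.98%), GGAATG (TEAD, 14.2%) and the PPAR element (0.0538%) found 0 matches in the 4 windows.

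Across the arrays, the 5 genes fell into 3 patterns. Dock11, Afap1l2 and Scin were lower with both drugs that slow migration. This held on every indomethacin array, all of them in set b, and on every NS-398 array of both sets, with Scin dim in set b. Raph1 was higher with both drugs at its brightest probe set. Myo1d was higher with indomethacin at its brighter probe set, and with NS-398 it was higher in set b and lower without the suffix. NS-398 and DMSO arrays did not overlap in the same direction in both sets for 4 of the 5 genes, against a background of 23.9% of 9840 genes. Myo1d did not overlap in opposite directions, which 12.7% of genes did. Indomethacin and DMSO arrays of set b did not overlap for all 5 genes, and for 56.1% of all genes. Nothing is read from these shares, since the genes were chosen on the same arrays. In bulk RNA, fewer cells of a kind and less RNA per cell cannot be told apart.

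**Figure D1:**
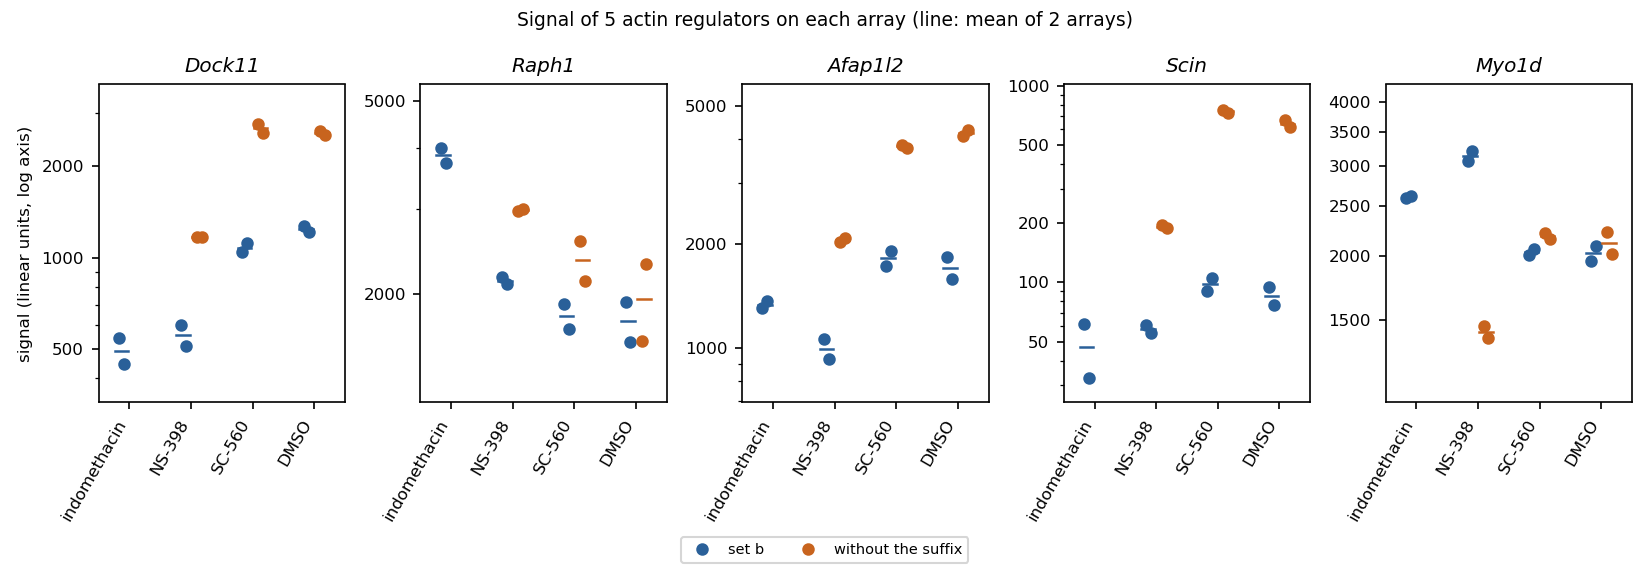
Signal of each gene's brightest probe set on every array (y axis, linear units on a log axis) by treatment, with points for arrays and lines for the mean of 2 arrays of a label set. The indomethacin and NS-398 arrays of Dock11 lie below the DMSO arrays of their own set, the SC-560 arrays lie near DMSO, and Scin, Afap1l2 and Dock11 are lower in set b than without the suffix.

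Dock11 (probe set 1384525_at), the activator of Cdc42, was lower by nearly the same size with indomethacin in set b and with NS-398 in both sets. In set b its signal was 544 and 444 on the indomethacin arrays, 600 and 513 on the NS-398 arrays, 1041 and 1119 on the SC-560 arrays, and 1267 and 1219 on the DMSO arrays. Without the suffix it was 1171 and 1168 with NS-398, 2758 and 2585 with SC-560, and 2620 and 2547 with DMSO. Both drugs that slow migration thus left Dock11 at less of its vehicle level in every array: indomethacin at 39.7% of the DMSO mean, and NS-398 at 44.8% in set b and 45.3% without the suffix. On the log2(signal + 50) scale used for all changes here, indomethacin gave -1.25 ± 0.096 (SE, 2 arrays against 2), the 14th largest change of 9840 genes in set b. NS-398 gave -1.10 ± 0.096 in set b and -1.11 ± 0.096 without the suffix, a difference of 0.01 ± 0.14. Indomethacin and NS-398, at the same dose and time, differed by -0.16 ± 0.096 in set b.

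Afap1l2 (1374535_at), the Src and phosphoinositide 3-kinase adaptor, was lower with both drugs and further below DMSO with NS-398. In set b its signal was 1302 and 1362 with indomethacin, 1061 and 928 with NS-398, 1725 and 1901 with SC-560, and 1827 and 1578 with DMSO. Without the suffix it was 2015 and 2076 with NS-398, 3854 and 3770 with SC-560, and 4093 and 4262 with DMSO. The NS-398 arrays were the lowest of each set, with the indomethacin arrays between them and DMSO. The log2 change was -0.34 ± 0.083 with indomethacin, and -0.75 ± 0.083 in set b and -1.01 ± 0.083 without the suffix with NS-398. Indomethacin minus NS-398 in set b came to 0.41 ± 0.083. In percent of the DMSO mean, Afap1l2 stood at 78.2% with indomethacin, and with NS-398 at 58.4% in set b and 49.0% without the suffix.

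Scin (1391279_at), the filament-severing protein, was dim in set b. There its signal was 61.6 and 32.7 with indomethacin, 60.8 and 55.3 with NS-398, 90.2 and 106 with SC-560, and 94.3 and 76.6 with DMSO. Without the suffix it was 196 and 189 with NS-398, 752 and 731 with SC-560, and 666 and 617 with DMSO. Scin was lower than DMSO on each indomethacin and NS-398 array, but only 1 of the 8 arrays of set b reached a signal of 100. Its log2 change with NS-398 was -1.51 ± 0.16 without the suffix, the 13th largest of 9840 genes there, and 30.0% of the DMSO signal was left. In set b the changes were -0.49 ± 0.16 with indomethacin and -0.32 ± 0.16 with NS-398. These set b values depend on the pseudocount: indomethacin gave -0.72 with 16 added and -0.21 with 200 added, and NS-398 gave -0.45 and -0.14. Without array 2b of indomethacin, the set b change was -0.28. The difference of 1.19 ± 0.23 between the NS-398 changes in set b and without the suffix therefore sets a dim measurement against a brighter measurement.

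Raph1 (lamellipodin), which recruits Ena/VASP proteins, was the gene of the 5 that was higher with both drugs. The brightest of its 4 probe sets, 1376658_at, read 4009 and 3721 with indomethacin, 2169 and 2102 with NS-398, 1907 and 1695 with SC-560, and 1929 and 1597 with DMSO in set b. Without the suffix it read 2973 and 3000 with NS-398, 2571 and 2131 with SC-560, and 1605 and 2309 with DMSO. The indomethacin arrays stood above all 12 others, and the NS-398 arrays above the DMSO arrays of their set. The indomethacin mean was 2.19-fold the DMSO mean, a log2 change of 1.12 ± 0.13 and the 24th largest of 9840 genes in set b. NS-398 gave 0.28 ± 0.13 in set b and 0.62 ± 0.13 without the suffix. The NS-398 values lean on single DMSO arrays, with 0.14 in set b without DMSO array 2b and 0.36 without the suffix when DMSO array 1 was left out. In set b, indomethacin exceeded NS-398 by 0.84 ± 0.13.

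The other Raph1 probe sets were dimmer and less even. With indomethacin they changed by 0.88 ± 0.18 (1374369_at), 0.51 ± 0.13 (1381748_at) and 0.27 ± 0.15 (1385987_at), the same direction as the brightest. Probe set 1374369_at read 775 and 700 with indomethacin and 410 and 348 with DMSO in set b. For NS-398 the probe sets disagreed. Probe set 1381748_at changed by 0.30 ± 0.13 in set b and 0.31 ± 0.13 without the suffix, while 1374369_at gave -0.17 ± 0.18 in set b and 0.11 ± 0.18 without it. Probe set 1385987_at gave 0.02 ± 0.15 in set b and 0.24 ± 0.15 without the suffix. Raph1 was thus above DMSO with indomethacin at 4 of 4 probe sets, though 1385987_at gave 0.10 without indomethacin array 1b and 0.44 without array 2b. With NS-398 it was above 0 in both sets at 3 of 4, at 1 of them by only 0.02 in set b, which turned to -0.07 without NS-398 array 1b.

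**Figure D2:**
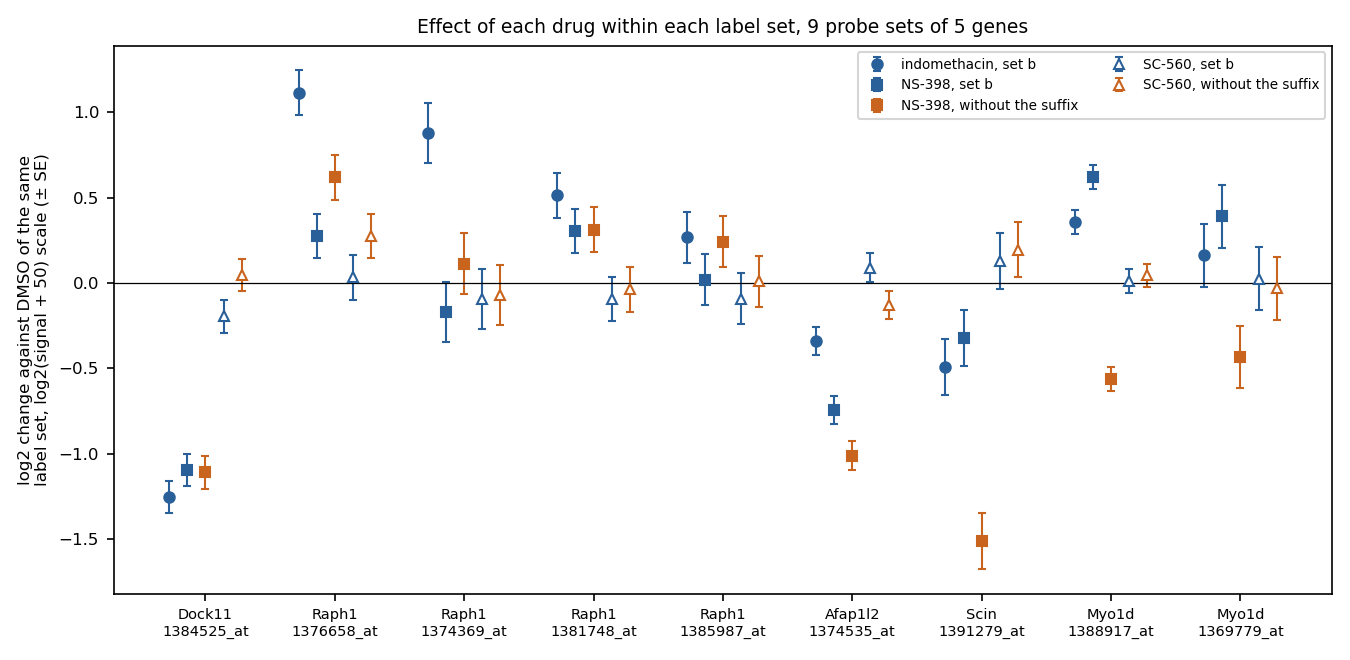
Change of the 9 probe sets against DMSO of the same label set (y axis, log2(signal + 50) scale, error bars SE), with colour for the label set and shape for the drug. Dock11 lies between -1.25 and -1.10 with indomethacin and NS-398, the 4 Raph1 probe sets lie above 0 with indomethacin, and both Myo1d probe sets move to opposite sides of 0 with NS-398 in the 2 sets.

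Myo1d, the membrane-linked motor, moved in opposite directions with NS-398 in the 2 label sets. Its brighter probe set, 1388917_at, read 2591 and 2614 with indomethacin, 3067 and 3206 with NS-398, 2010 and 2065 with SC-560, and 1954 and 2094 with DMSO in set b. Without the suffix it read 1460 and 1379 with NS-398, 2215 and 2162 with SC-560, and 2226 and 2021 with DMSO. NS-398 arrays were the highest of the 14 in set b and the lowest without the suffix, while the DMSO and SC-560 arrays of both sets lay together between 1954 and 2226. The log2 change with NS-398 was 0.62 ± 0.069 in set b and -0.56 ± 0.069 without the suffix. The dimmer probe set, 1369779_at, gave 0.39 ± 0.18 in set b and -0.43 ± 0.18 without it. Without NS-398 array 2b the set b value was 0.22, and without NS-398 array 1 the other was -0.24. Indomethacin gave 0.36 ± 0.069 at the brighter probe set. At the dimmer probe set the indomethacin arrays (236 and 370) lay on either side of the DMSO arrays of set b (264 and 256), and the change of 0.16 ± 0.18 turned to -0.11 without indomethacin array 2b and was 0.44 without array 1b. A fit with 1 NS-398 effect for both sets averaged the opposite changes to 0.03 for the brighter probe set, and gave 0.16 for indomethacin.

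**Figure D3:**
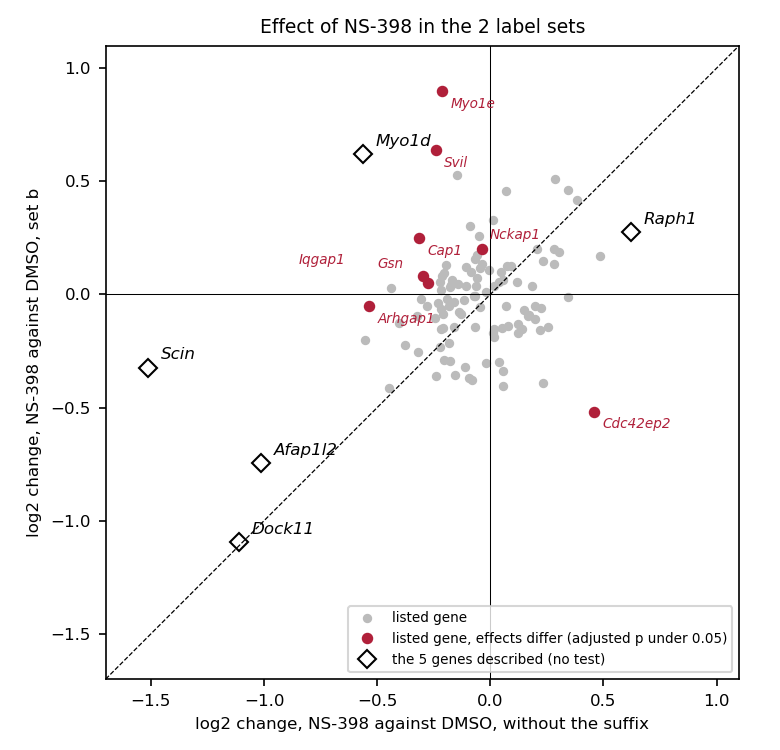
Log2 change with NS-398 against DMSO without the suffix (x axis) and in set b (y axis), with the 5 genes as open diamonds, listed partner genes as points and a dashed line where both changes are equal. Dock11 lies on the line, Scin (-1.51 and -0.32) and Myo1d (-0.56 and 0.62) lie off it, and red marks the 8 listed genes whose changes differed between the sets.

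The level of these genes in vehicle cells also differed between the label sets. It is given with no test, since the same DMSO arrays entered the changes the genes were picked for. Afap1l2 stood at -1.27 ± 0.083 on the log2 scale in DMSO cells of set b against those without the suffix, and Dock11 at -1.03 ± 0.096. Scin stood at -2.35 ± 0.16, a value that was -2.70 with 16 added to each signal and -1.56 with 200, since Scin was dim in set b and reached the signal filter mainly through the arrays without the suffix. The DMSO arrays of set b lay below those without the suffix for all 3 genes, the same genes that were lower with both drugs. Differences between the sets in DMSO were widespread, with 7340 of all 17515 probe sets called (limma, adjusted p under 0.05). By size, the difference ranked 94 of 9840 genes for Scin, 447 for Afap1l2 and 716 for Dock11, so it was larger than for most genes. Since set differences were widespread and the genes were picked on these arrays, the lower level is not read as particular to these 3 genes. Nor is it read as tied to their drug changes. Raph1 gave -0.13 ± 0.13 at its brightest probe set and -0.39 without DMSO array 1, and its arrays overlapped between the sets. Raph1 probe set 1374369_at gave -0.55 ± 0.18, and Myo1d gave -0.07 ± 0.069 with overlapping arrays. Set b also had the lower 3′ over 5′ ratio of beta-actin, and the part of that ratio in these levels was not tested.

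SC-560 was tested, taking the genes as picked on indomethacin and NS-398. It shares the DMSO arrays with those comparisons, so its values and tests are not independent of the choice of genes. None of the 5 genes was called. The log2 change was -0.07 ± 0.078 for Dock11 (limma adjusted p 0.883, 95% interval -0.24 to 0.09), 0.15 ± 0.10 for Raph1 (0.807, -0.06 to 0.37) and -0.02 ± 0.070 for Afap1l2 (0.976, -0.17 to 0.13). It was 0.16 ± 0.20 for Scin (0.917, -0.27 to 0.59) and 0.03 ± 0.18 for Myo1d (0.988, -0.34 to 0.40). In set b the SC-560 arrays did not overlap the DMSO arrays for 1 of the 5 genes, Dock11, which was lower, against 44.1% of all genes. Without the suffix they did not overlap for Afap1l2, which was lower, and Scin, which was higher, against 33.5% of all genes. The interval of Dock11 does not reach the -1.25 to -1.10 measured with the other drugs, nor that of Afap1l2 the -1.01 to -0.34. That of Raph1 reaches past the 0.28 of NS-398 in set b, and that of Myo1d past the 0.36 of indomethacin. For Scin it ends at -0.27, beside -0.32 with NS-398 in set b. The intervals cover both sets together, and the values beside them are within-set changes for which the genes were picked. Across all probe sets SC-560 called 0 of 17515 with limma (0%), against 1263 at an unadjusted p under 0.05. A difference in the SC-560 change between the label sets was called for 0 of the 9 probe sets of these genes, beside 0.0171% of all probe sets.

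The genes whose pattern was most like each of the 5 were found by Pearson's r over the 14 arrays, after the mean of each label set was removed, among 9835 other genes. These correlations describe the same 14 arrays and share their drug groups. Dock11 was nearest to Tpm1, a tropomyosin that coats actin filaments (0.97), Hist2h2be (0.97) and Pakap (0.97), and most opposite to Nqo1, a quinone reductase (-0.98). Raph1 was nearest to Pik3r1, the regulatory subunit of phosphoinositide 3-kinase (0.93), Arid5b (0.92) and Ccdc167 (0.91), and most opposite to Castor1 (-0.95). Afap1l2 was nearest to Tinagl1 (0.97), Olfml3 (0.96) and Tra2a (0.96), and most opposite to the transketolase gene Tkt (-0.99). Scin was nearest to Pkhd1l1 (0.97), Agrn, the proteoglycan agrin (0.97), and Kat5 (0.96), and most opposite to Ttll7 (-0.97). Myo1d was nearest to Atp6v0e1 (0.95), Tsr3 (0.95) and Aga (0.95), and most opposite to the cytokine gene Il33 (-0.95).

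Among the 5 genes themselves, Dock11, Afap1l2 and Scin followed each other, with r of 0.88 for Dock11 and Afap1l2, 0.86 for Dock11 and Scin and 0.85 for Afap1l2 and Scin over the 14 arrays. Raph1 ran against Dock11 at -0.75. Myo1d lay between -0.06 and 0.42 with the other genes. The drug changes for which the genes were picked remain in these values. Correlation among them thus follows in part from the choice of genes, and nothing further is read from it.

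Relatives and partners of the 5 genes were read from 8 lists. The lists held 146 other genes, of which 108 were tested. With indomethacin 2 were higher and 4 lower (5.56%), against 3.6% of all genes, of which 1.55% were higher and 2.04% lower. With NS-398 5 were higher and 11 lower (14.8%), against 15% of all genes, 7.91% higher and 7.07% lower. With SC-560 0 were called. The median log2 change of the 108 was -0.01 with indomethacin and -0.04 with NS-398, beside 0.00 for all genes under both drugs. The indomethacin calls were 0 without array 2b of indomethacin, 1 without its array 1b and 3 without DMSO array 1b. The NS-398 calls were 8 without DMSO array 1, 7 without DMSO array 2 and 10 without NS-398 array 1.

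**Figure D4:**
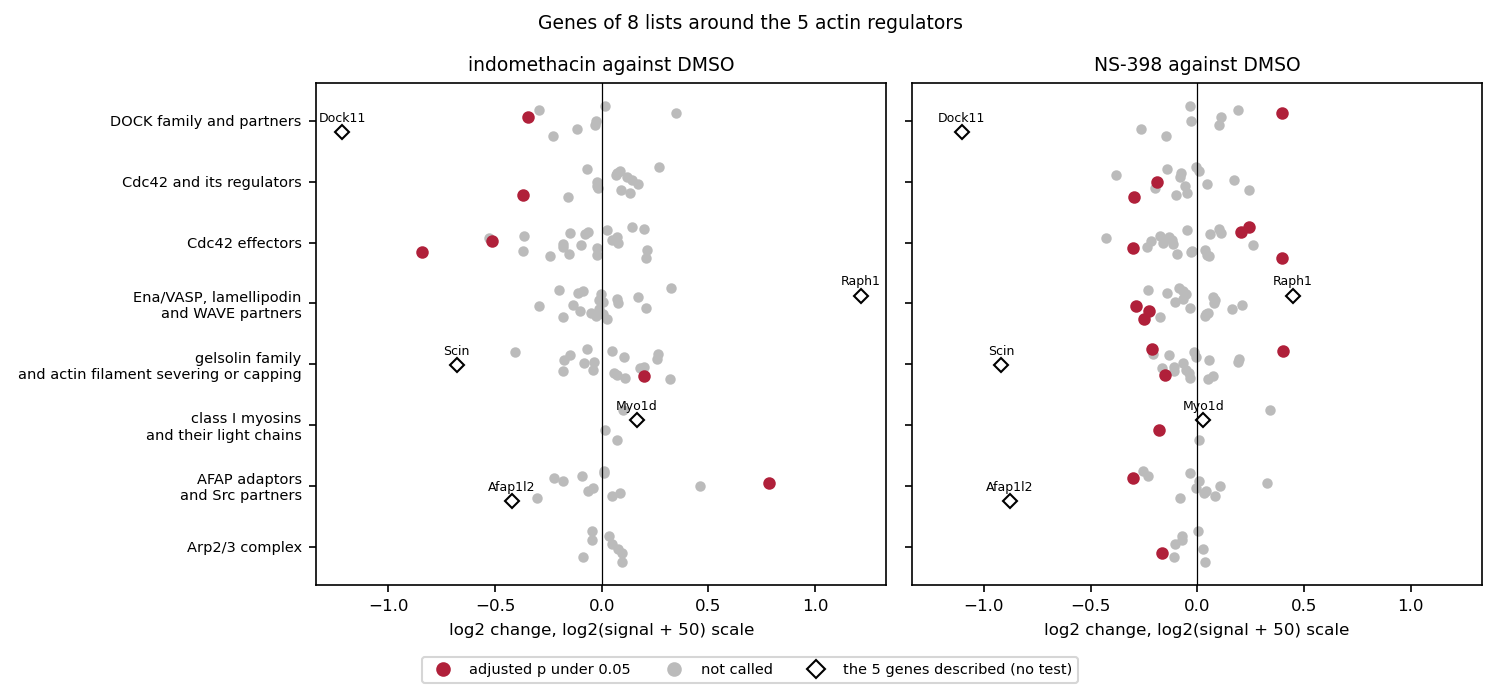
Log2 change of each tested gene of the 8 lists (x axis) with indomethacin (left) and NS-398 (right) against DMSO, with red points for genes at an adjusted p under 0.05, grey points for other listed genes and open diamonds for the 5 genes described. Under indomethacin all 5 genes lie outside the range of their lists, and under NS-398 all but Myo1d do. The 5 genes were picked for large changes in these arrays, so this follows from the choice. Under indomethacin, Myo1d (0.16 ± 0.23) is set beside only 3 genes and lies within its error of them.

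In the family of Dock11, 8 relatives and partners were tested. Dock8, another activator of Cdc42, was lower with indomethacin (-0.35 ± 0.090, limma adjusted p 0.0430), and Dock9, a close relative of Dock11, was higher with NS-398 (0.40 ± 0.078, adjusted p 0.00283). Dock9 thus ran opposite to Dock11 at its brighter probe set, and its dimmer probe set gave -0.23 with NS-398 (adjusted p 0.452). With indomethacin the brighter probe set gave 0.35 ± 0.10 and was not called over both sets (adjusted p 0.0718). Within set b it was called higher (0.37 ± 0.096, adjusted p 0.0272). The dimmer Dock9 probe set gave -0.14 with indomethacin over both sets (adjusted p 0.819). Of 15 genes for Cdc42 and its regulators, 1 fell with indomethacin (Arhgap17, -0.37) and 2 with NS-398, Cdc42 itself (-0.19 ± 0.051, adjusted p 0.0214) and Arhgap1 (-0.29). The other Cdc42 probe set gave -0.16 with NS-398 and was not called (adjusted p 0.154). Among 23 Cdc42 effectors, 2 fell with indomethacin, the kinase Pak1 (-0.51 ± 0.092, adjusted p 0.00458) and Cdc42ep2 (-0.84 ± 0.20, adjusted p 0.0266). With NS-398, 3 effectors rose, Prkci (0.20), Baiap2 (0.40) and Wipf1 (0.24, named after its values were seen), and Cdc42ep5 fell (-0.30). Dimmer probe sets were not called for Prkci (-0.11 and 0.09), Baiap2 (0.08 and 0.12) or, with indomethacin, Arhgap17 (0.34).

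Of 20 partners of Raph1, 0 were called with indomethacin. With NS-398, Evl (-0.29 ± 0.074, adjusted p 0.0157), Abi1 of the WAVE complex (-0.25 ± 0.061, adjusted p 0.0123) and Cyfip1 (-0.23, named after its values were seen) fell. The Ena/VASP genes that Raph1 binds were not called in either comparison apart from Evl: Enah gave 0.21 ± 0.079 with indomethacin and Vasp -0.09 ± 0.092. Of 19 genes listed around Scin for filament severing and capping, Capg rose with indomethacin (0.20). With NS-398 the villin relative Vill rose (0.40) while Capza1 (-0.15) and Wdr1 (-0.21) fell. Against the same DMSO arrays, Vill gave 0.38 ± 0.096 with SC-560, close to its NS-398 value. It was not called there (limma adjusted p 0.428), so its change is not read as particular to NS-398. Capg gave 0.15 ± 0.041 with SC-560 and was not called (adjusted p 0.428). Gelsolin itself, Gsn, gave 0.20 ± 0.095 with indomethacin and was not called in the fit over both sets, but was called higher within set b (0.25 ± 0.063, adjusted p 0.0215). Of 12 genes around Afap1l2, Pik3r1, which encodes the kinase subunit that Afap1l2 binds, rose with indomethacin (0.79 ± 0.15, adjusted p 0.00680), and the focal adhesion kinase gene Ptk2 fell with NS-398 (-0.30). Of 3 relatives and light chains of Myo1d, Myo1c fell with NS-398 (-0.18), and of 8 Arp2/3 subunits, Arpc1b fell (-0.16). Most of these calls leaned on single arrays. Dock9 and Vill kept theirs in all 14 fits that each left out 1 array, Capg in 1, Arpc1b in 3 and Dock8 in 5 of 14. Pik3r1 and Arhgap17 lost theirs without either indomethacin array, Pak1 without indomethacin array 2b, and Cdc42ep2 without any of the DMSO or indomethacin arrays of set b. With NS-398, Evl and Ptk2 lost theirs without DMSO array 2, Abi1 without DMSO array 1b, and Cdc42 without DMSO array 2b or NS-398 array 1.

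A change with NS-398 that differed between the label sets, as that of Myo1d did, was called for 8 of the 108 listed genes (7.41%, against 7.57% of all genes). The change in set b minus that without the suffix was positive for Arhgap1, Iqgap1, Nckap1, Gsn, Cap1, Svil and Myo1e, and negative for Cdc42ep2. A positive difference need not be a rise in set b: Arhgap1 gave -0.05 ± 0.092 there and -0.54 ± 0.092 without the suffix. Myo1e, another class I myosin and named after its values were seen, gave 0.90 ± 0.14 in set b and -0.21 ± 0.14 without the suffix, a difference of 1.11 ± 0.19 (limma adjusted p 0.00298) beside the untested 1.18 ± 0.098 of Myo1d. The rest of that list was not called. Myo1c gave a difference of 0.06 ± 0.088 (adjusted p 0.767) and the light chain gene Calm2 0.23 ± 0.091 (adjusted p 0.163).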

How the data were processed

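Rat IEC-6 RNA was amplified by 2 rounds of in vitro transcription and hybridised to 14 one-colour Affymetrix arrays, per the labels. The authors deposited linear signal intensities for 31099 probe sets, scaled per the labels to a target signal of 500; the sources used here do not name the summarising software. The number of arrays limits the precision. Names came from GEO's platform annotation, which gave 1 symbol for 20826 probe sets and several for 436, left unnamed here; it did not list 9780. With the 57 controls set aside, 17515 probe sets with a signal of 100 or more on 2 or more arrays were fitted. They covered 9840 genes, each represented by its brightest probe set.

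Log2(signal + 50) was fitted with limma 3.58.1 (R 4.3.3, empirical Bayes with intensity trend). Changes of listed genes and of SC-560 come from a model of treatment and label set, and changes within a set from 1 mean for each of 7 combinations. Errors after ± are standard errors, and adjusted p-values are Benjamini-Hochberg values over all probe sets, called under 0.05. The fit was tested on simulated data.

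The 5 genes and the lists (DOCK family, Cdc42 regulators, Cdc42 effectors, Ena/VASP and WAVE partners, severing and capping, class I myosins, AFAP and Src partners, Arp2/3, and cell markers) were chosen with earlier results of these data known. Named listed genes were up to 2 called per list, drug and direction with the smallest adjusted p, plus Cdc42, Rac1, Enah, Vasp, Gsn, Myo1c, Afap1 and Dock9. Afap1 was not among the probe sets fitted, 1 further gene of the rule is not reported here, and Rac1 gave 0.07 with indomethacin and -0.07 with NS-398, neither called. Alternatives were other pseudocounts, filters, normalization, blocks, single sets and leaving out each array.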

Additional observations from a re-analysis of the deposited data

Results flagged for a closer look

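Myo1d changed in opposite directions with NS-398 in the 2 label sets, with every NS-398 array of set b above its DMSO arrays and every array without the suffix below. The log2 change in set b minus that without the suffix was 1.18 at probe set 1388917_at and 0.82 at probe set 1369779_at. The difference was not tested, since the gene was chosen on its changes within each set.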

How the results depend on the processing

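The 5 genes kept the direction of their brightest probe set against DMSO, with indomethacin and NS-398 and within each set, under every pseudocount, filter and normalization tried. Signal limits Scin, which reached 100 on 1 of 8 arrays of set b. Indomethacin against NS-398 turned sign for 3 genes: Afap1l2 (0.46, and -0.10 with no label set term), Scin (0.24, -0.75 with no label set term and -0.17 in set b alone) and Myo1d (0.14, and -0.26 in set b alone). Cdc42ep2 with NS-398 was -0.03 over both sets and 0.46 without the suffix alone.

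The counts were 572 probe sets for indomethacin, 2366 for NS-398, 0 for SC-560, 954 for indomethacin against NS-398, 1066 and 3 for NS-398 and SC-560 effects that differ by set, and 6 and 16 listed genes for indomethacin and NS-398. Without a filter they were 347 for indomethacin, 699 for NS-398 by set and 3 listed for indomethacin. Without the intensity trend they were 328 for indomethacin, 2 for SC-560, 512 and 1 by set, and 3 and 9 listed. With no label set term they were 2, 111 and 15, with 0 listed for either drug. A random block for arrays of the same group and set gave 283, 1561 and 544, with 8 listed for NS-398, and could not be fitted with 7 means. Set b alone gave 1174 for indomethacin, 3 for SC-560, 1630 between the drugs and 10 listed. The set without the suffix alone gave 2 for SC-560 and 9 listed for NS-398. With the array labels as a replicate block, 3 and 13 listed genes were called. After group and set means were removed, arrays sharing a label had correlations of -0.08 to 0.06. With 2 arrays per group and set, the 2 remainders mirror each other. These values therefore cannot settle whether the labels mark a pairing.

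Leaving out each array gave 100 to 632 for indomethacin, 1659 to 2369 for NS-398, 0 to 0 for SC-560, 261 to 985 between the drugs, 504 to 1213 and 2 to 8 by set, 5745 to 7495 between sets in DMSO (7340 with all arrays), and 0 to 7 and 7 to 17 listed. Where 1 array remains in a group, it is assumed to vary like the others.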
